A study of Mus musculus with 6 samples.

Results

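The replication-dependent histone genes were followed across sorted dendritic cells (DC) of mouse tumors. Members were all genes whose symbol starts with Hist1, Hist2, Hist3 or Hist4, which gave 68 of the 23224 genes in the table. They comprise 6 genes for the linker histone H1, 18 for H2A, 19 for H2B, 12 for H3 and 13 for H4. By cluster, 54 lie in Hist1, 10 in Hist2, 3 in Hist3 and 1 in Hist4, and 1 of the H2B genes, Hist3h2bb-ps, is named as a pseudogene. The 64 members that passed the filter on low counts were tested as single genes. Hist1h2aa, Hist1h2ap, Hist1h2ba and Hist1h4n were not, and of these Hist1h2ba and Hist1h4n had no count in any library.

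The cells came from MC57-SIY tumors, a mouse fibrosarcoma line that carries the SIY model antigen, taken 7 days after implantation under the skin of C57BL/6 mice. Hosts labelled Rag2-/-, which cannot recombine antigen receptor genes and so have no mature T or B cells, gave 2 libraries of CD103+ DC1 and 2 libraries of ISG+ DC. A further 2 libraries of ISG+ DC came from hosts labelled WT. CD103+ DC1 are conventional DC known for cross-presentation. Tumors were pooled, 2 independent experiments are stated for each kind of sample, the gate that defines ISG+ DC was not stated in the labels, and no DC1 library from WT hosts was analysed here. One comparison set ISG+ DC against CD103+ DC1 within Rag2-/- hosts, and the other set ISG+ DC of WT hosts against ISG+ DC of Rag2-/- hosts. Both use the ISG+ DC libraries labelled Rag2-/-, so they are not independent of each other.

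Histones are the proteins that DNA is wound around. H2A, H2B, H3 and H4 form the core of the nucleosome, and H1 binds the linker DNA between nucleosomes. The genes of the Hist clusters are transcribed mainly in S phase, when new chromatin is assembled, and most of their mRNAs end in a conserved stem-loop in place of a poly(A) tail. Stem-loop binding protein, the U7 small nuclear ribonucleoprotein and a cleavage complex form that end, and histone mRNA is degraded when DNA replication stops. Cells that have left the cell cycle take histones for repair and turnover from variant genes outside the clusters, whose mRNAs are mostly polyadenylated.

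The stem-loop is the sequence that sets these mRNAs apart, and it was looked for without a preset sequence, as a stem of 6 bases around a loop of 4 bases after the stop codon of GENCODE M21 transcripts. The sequences found in at least 2 members are shown 5′ to 3′ as DNA, with the stem in capitals, because they mark which members share a 3′ end.
Shared by 26 members (3 H1, 10 H2A, 8 H2B and 5 H3): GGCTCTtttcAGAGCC
Shared by 7 members (all H4): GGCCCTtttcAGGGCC
Shared by 6 members (1 H1, 2 H2B and 3 H3): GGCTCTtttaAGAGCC
Shared by 2 members (both H4): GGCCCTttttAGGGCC
Shared by 2 other members (both H4): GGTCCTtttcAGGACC
The stem differed by type: the H4 members that had one carried another stem than the members of the other types. Of the 52 members whose transcript model holds at least 16 bases after the stop codon, 43 (82.7%) had 1 of these 5 sequences. The commonest sequence began 25 to 59 bases after the stop codon, with a median of 32 bases. The 20897 other genes were searched only for these 5 sequences, and 1 of them (0.0048%), H2bfm, held one. The sequences were picked from the members, so the share of members is not comparable with that of the other genes. The match is a description of the annotated letters and was not measured in these libraries.

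The 150 bases before the start site are shown for the member of each of 3 types with the smallest p among those that passed a test below. They are RefSeq sequences of build GRCm38.p6, printed 5′ to 3′ on the strand of the gene. Capitals mark matches to TATAAA (the TATA box), CCAAT (the CCAAT box) and ATTTGCAT (the octamer bound by POU factors), each searched on both strands.
Hist1h1b (an H1 gene, chr13:21780626-21780775, minus strand): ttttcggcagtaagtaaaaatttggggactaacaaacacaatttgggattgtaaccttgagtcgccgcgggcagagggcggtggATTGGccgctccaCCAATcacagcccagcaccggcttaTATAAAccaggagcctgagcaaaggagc
Hist1h2ai (an H2A gene, chr13:21716262-21716411, plus strand): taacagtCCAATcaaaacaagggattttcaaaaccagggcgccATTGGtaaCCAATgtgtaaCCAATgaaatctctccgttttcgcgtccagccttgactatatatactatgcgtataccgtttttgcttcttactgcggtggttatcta
Hist1h2bg (an H2B gene, chr13:23571250-23571399, plus strand): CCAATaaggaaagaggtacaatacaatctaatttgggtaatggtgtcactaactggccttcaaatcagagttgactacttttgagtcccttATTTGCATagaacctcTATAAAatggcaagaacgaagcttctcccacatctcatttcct
The Hist1h1b stretch holds CCAAT matches at positions -66 and -53 and a TATAAA match at -28, counted from the start site. The Hist1h2ai stretch holds 4 CCAAT matches between -143 and -88, and in Hist1h2bg the octamer lies at -59 and TATAAA at -43. No match overlaps another in these stretches. No H3 or H4 member passed, and the stretches of their members with the most counts, Hist2h3c2 and Hist1h4m, are not printed. That of Hist2h3c2 held no match, and that of Hist1h4m held TATAAA at -128 only. Over the 250 bases before the start of the 61 members matched to 1 RefSeq gene, 47.5% held TATAAA, against 14.3% of 27025 genes. CCAAT was present in 82% of these members against 37.5% of all genes, and in all 6 H1, 17 of 17 H2A, 16 of 16 H2B, 8 of 10 H3 and 3 of 12 H4 genes. The octamer was present in 23% of members against 1.81% of all genes, in 7 of 17 H2A and 7 of 16 H2B genes and in none of the others searched. The printed letters do not show that a factor binds there.

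The libraries held between 6023510 and 15368616 estimated counts. The host label was looked at through Rag2, the recombinase gene: it had 39 and 11 counts in CD103+ DC1, 40 and 2 in ISG+ DC labelled Rag2-/-, and 0 and 0 in ISG+ DC labelled WT. Rag2 counts were thus present only where the label says that the gene is deleted, the deleted part is not given, and the hosts are named by their labels throughout; each direction between hosts rests on those labels. CD103+ DC1 replicate 3 stood apart, with the lowest total and with 11490 CPM of the noncoding RNA Rpph1 against 2897 to 3995 CPM in the other 5 libraries. The labels name polyA RNA, while their protocol names a total RNA kit, which matters for genes whose mRNAs mostly lack a poly(A) tail. CPM are counts scaled to the library total after TMM adjustment, and pairs of values follow the replicate numbers, 2 and 3 for the groups labelled Rag2-/- and 1 and 2 for the group labelled WT. Counts per gene are not divided by length, so no level is compared between genes.

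The members took 0.479% and 0.796% of all counts in CD103+ DC1, 0.277% and 0.336% in ISG+ DC labelled Rag2-/-, and 0.118% and 0.0920% in ISG+ DC labelled WT. Their summed level was 4582 and 8208 CPM in CD103+ DC1, 2675 and 3322 CPM in ISG+ DC labelled Rag2-/-, and 1208 and 960.4 CPM in ISG+ DC labelled WT. Every library of a group lay apart from every library of the other groups, with CD103+ DC1 highest and ISG+ DC labelled WT lowest. The means were 6395 ± 2564, 2999 ± 457 and 1084 ± 175 CPM (SD, n = 2 each), which is 2.13-fold lower in ISG+ DC than in CD103+ DC1 and 2.77-fold lower in the WT than in the Rag2-/- label; this total was not tested. The first fold was 1.53 without CD103+ DC1 replicate 3 and 2.74 without replicate 2. In sorted bulk samples, fewer cycling cells and less histone mRNA per cell cannot be told apart. Members without any count numbered 5 and 6 in CD103+ DC1, 4 and 5 in ISG+ DC labelled Rag2-/-, and 14 and 20 in ISG+ DC labelled WT.

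**Figure D1:**
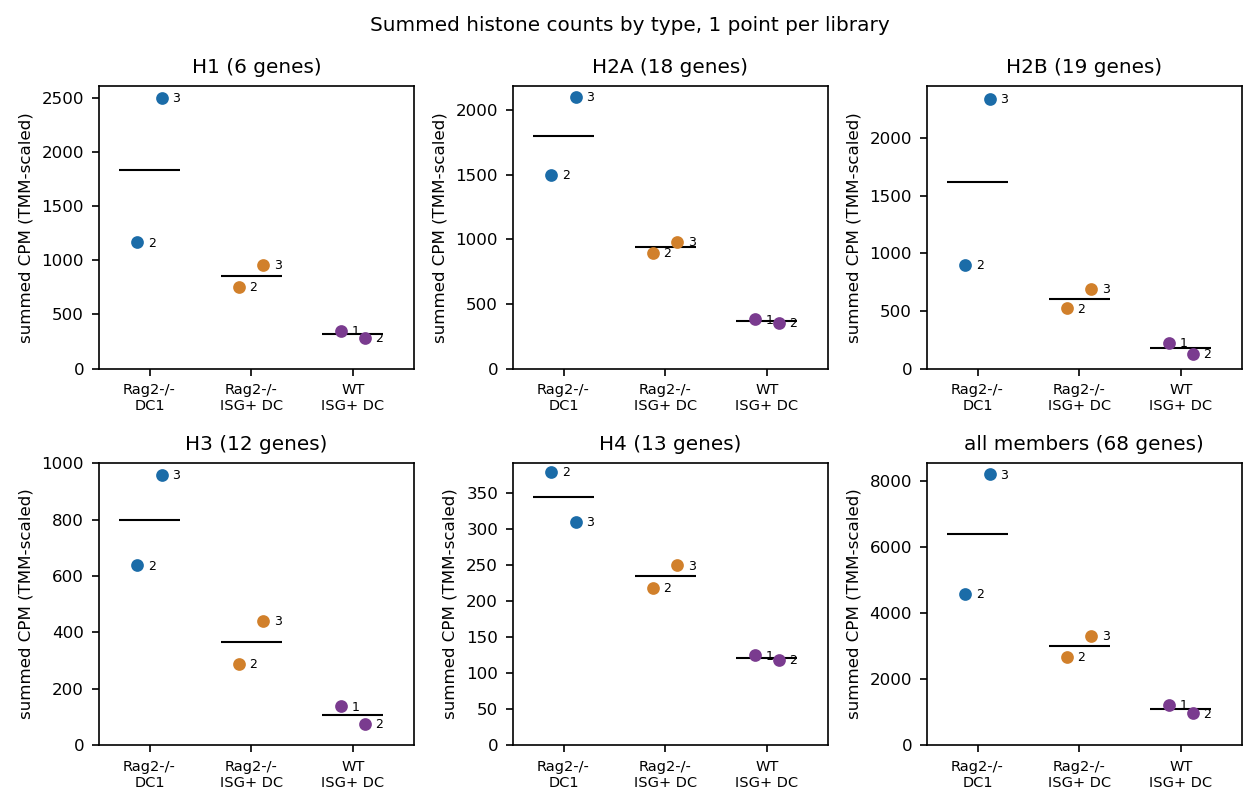
Summed CPM (TMM-scaled, linear axes from 0) of all members of each histone type and of all 68 members, by group; each point is 1 library with its replicate number, and the bar is the mean of the 2 libraries. In each panel the 3 groups do not overlap, and the total runs from 960.4 to 8208 CPM.

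Between ISG+ DC and CD103+ DC1 of hosts labelled Rag2-/-, 2 members fell and none rose when edgeR's quasi-likelihood p was adjusted by Benjamini-Hochberg over all 13223 genes. The genes that fell were Hist1h2ao and Hist1h2bf. Of all genes tested, 0.862% fell and 2.83% rose. No member was higher at an unadjusted p under 0.05 or in DESeq2, whereas 15 were lower at that unadjusted p and 9 fell in DESeq2. Of all genes, 6.11% were lower and 8.8% higher at that unadjusted p, and 3.02% fell and 5.13% rose in DESeq2. The fitted log2 fold change was below 0 for 52 of 64 members (81.2%, against 50.7% of all genes), and its median was -0.76 against -0.02. In 34 members both ISG+ DC libraries lay below both CD103+ DC1 libraries, a pattern found in 22% of all genes. The count of members that fell was 17 (and 1 rose) without CD103+ DC1 replicate 2, 1 without ISG+ DC labelled Rag2-/- replicate 2 and 0 without its replicate 3.

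Between ISG+ DC labelled WT and ISG+ DC labelled Rag2-/-, 4 members fell and none rose in the same test. The genes that fell were Hist1h1b, Hist1h2ad, Hist1h2ai and Hist1h2bg. Of all genes tested, 0.265% fell and 0.287% rose in this comparison. At an unadjusted p under 0.05, 30 members were lower and 1 was higher, and in DESeq2 18 fell and 0 rose. Of all genes, 5.32% were lower and 4.56% higher at that unadjusted p, and 2.11% fell and 1.98% rose in DESeq2. The fitted log2 fold change was below 0 for 59 of 64 members (92.2%, against 51.5% of all genes), with a median of -1.86 against -0.03. Both libraries labelled WT lay below both labelled Rag2-/- in 48 members, against 23.1% of all genes. The count that fell was 15 without ISG+ DC labelled WT replicate 1 and 2 without ISG+ DC labelled Rag2-/- replicate 2.

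**Figure D2:**
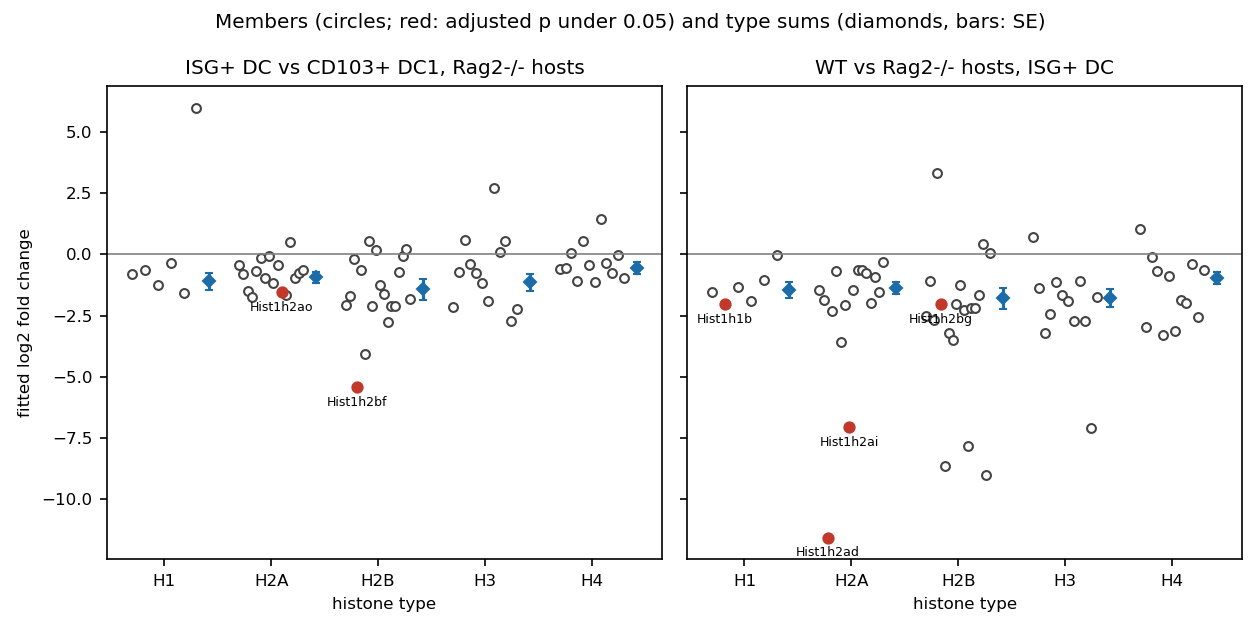
Fitted log2 fold change of each of the 64 tested members (circles, grouped by histone type; red where the adjusted p was under 0.05) and of the 5 summed types (diamonds, bars show the SE) in both comparisons. Medians of the members were -0.76 (left) and -1.86 (right); fitted values of members without counts in 1 group, such as the lowest points on the right and Hist1h1t at the top left, depend on the prior count and are no sizes.

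Single members are harder to read than sums. Coding sequences of equal length within a type were identical at a median of 96.4% of positions for H2A, 95.7% for H2B, 97.6% for H3 and 93.9% for H4, and RSEM splits reads that fit several genes. Of the member values, 79.9% were not whole numbers, against 16.1% of all values. Between the 2 libraries of a group, single members differed by a median of 1.81-fold in CD103+ DC1, 1.47-fold in ISG+ DC labelled Rag2-/- and 1.90-fold in ISG+ DC labelled WT. These medians cover the 61, 62 and 43 members with counts in both libraries of the group. They leave out 3, 3 and 16 members at 0 in 1 of the libraries, so the spread is understated, most in the WT label. Other tested genes differed by 1.64-fold, 1.39-fold and 1.39-fold, and the 5 type sums by a median of 1.5-fold, 1.28-fold and 1.2-fold. The sums were therefore fitted too, with 5 rows in place of the single members, in a table of 13164 rows of which 0.912% fell between populations and 0.243% between hosts. A single member's call below can reflect how reads were shared among copies.

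Linker histone H1 compacts the chromatin fibre. Summed H1 was 1163 and 2496 CPM in CD103+ DC1, 750.5 and 959 CPM in ISG+ DC labelled Rag2-/-, and 343 and 286 CPM in ISG+ DC labelled WT. The groups did not overlap in either comparison, and CD103+ DC1 replicate 3 alone was more than any other library by a wide margin. The sum missed the threshold between populations (log2 fold change -1.10 ± 0.34 SE, edgeR adjusted p = 0.121) and between hosts (-1.45 ± 0.34, adjusted p = 0.0943). Without CD103+ DC1 replicate 3 the population difference was -0.43 ± 0.20 (adjusted p = 0.352), and without replicate 2 it was -1.55 ± 0.19 (adjusted p = 6.18e-06), so its size rests on which DC1 library is used.

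Hist1h1b (H1.5) was the H1 gene that fell. It had 149 and 127 CPM in CD103+ DC1, 65.6 and 110.5 CPM in ISG+ DC labelled Rag2-/-, and 22.1 and 21.5 CPM in ISG+ DC labelled WT. No groups overlapped, and it was 4.04-fold lower in the WT than in the Rag2-/- label (log2 fold change -2.02 ± 0.37 SE, edgeR adjusted p = 0.0459). This call was lost without ISG+ DC labelled Rag2-/- replicate 2 (adjusted p = 0.0691) or 3 (0.25) and without ISG+ DC labelled WT replicate 1 (0.0752) or 2 (0.129). Between populations its value was -0.65 ± 0.35 (adjusted p = 0.441). Hist1h1c (H1.2) took the most counts of the type, 34.1% to 51.8% of the H1 counts of a library. It had 397 and 1294 CPM in CD103+ DC1, 323 and 391 CPM in ISG+ DC labelled Rag2-/-, and 168 and 115 CPM in ISG+ DC labelled WT. All libraries were ordered by group, but with fitted differences of -1.24 ± 0.45 (adjusted p = 0.209) and -1.33 ± 0.46 (adjusted p = 0.302) it passed in neither comparison. The population difference of Hist1h1c was -0.13 (adjusted p = 0.964) without CD103+ DC1 replicate 3 and -1.86 (adjusted p = 8.73e-06) without replicate 2. Over the 6 H1 genes the median log2 fold change was -0.73 between populations, with 4 genes apart and lower, and -1.43 between hosts, with 5 apart and lower. The other H1 genes of substance, given here after their values were seen, were Hist1h1d and Hist1h1e. Hist1h1d (H1.3) had 275 and 222 CPM in CD103+ DC1, 159 and 233.5 CPM in ISG+ DC labelled Rag2-/-, and 68.6 and 35.4 CPM in ISG+ DC labelled WT, where the populations overlapped and the hosts did not (host adjusted p = 0.0516). Hist1h1e (H1.4) had 271 and 801 CPM, 162 and 194 CPM, and 73.6 and 98.7 CPM in the same order, with no overlap and an adjusted p of 0.0849 between populations. Hist1h1t, the testis H1 gene, had at most 1.32 CPM in any library.

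H2A pairs with H2B as a dimer on either side of the nucleosome core. Summed H2A was 1502 and 2102 CPM in CD103+ DC1, 895.5 and 983 CPM in ISG+ DC labelled Rag2-/-, and 381 and 354 CPM in ISG+ DC labelled WT. The groups did not overlap, and the 2 libraries of each ISG+ DC group lay close together. Among the 5 sums, H2A was the only one to pass in edgeR with all 6 libraries, TMM scaling, the filter on low counts and no block; in DESeq2 and in the 4 libraries alone all 5 passed between hosts. It fell 2.57-fold from the Rag2-/- to the WT label (log2 fold change -1.36 ± 0.24 SE, edgeR adjusted p = 0.0402). The call did not survive leaving out ISG+ DC labelled Rag2-/- replicate 2 (adjusted p = 0.118) or 3 (0.139) or ISG+ DC labelled WT replicate 1 (0.0773) or 2 (0.185), with log2 fold changes between -1.43 and -1.29. Between populations the sum missed the threshold (-0.94 ± 0.24, adjusted p = 0.0592), but it passed without CD103+ DC1 replicate 2 (-1.16 ± 0.18, adjusted p = 6.92e-05) and without replicate 3 (-0.66 ± 0.18, adjusted p = 0.0267).

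Hist1h2ao, Hist1h2ai and Hist1h2ad passed as single members. The first, with 286 and 484 CPM in CD103+ DC1, 128 and 137 CPM in ISG+ DC labelled Rag2-/- and 92.5 and 78.6 CPM in ISG+ DC labelled WT, fell 2.90-fold between populations (log2 fold change -1.54 ± 0.31 SE, edgeR adjusted p = 0.0201). Its DC1 libraries lay above all 4 others. The adjusted p was 0.133 without ISG+ DC labelled Rag2-/- replicate 2, 0.118 without replicate 3 and 0.0594 in a fit of the 4 libraries alone. Between hosts its value was -0.63 ± 0.30 (adjusted p = 0.563). Hist1h2ao took the most H2A counts, 13.9% to 24.3% of the type.
Hist1h2ai had 67.2 and 91.4 CPM in CD103+ DC1, 68 and 81.6 CPM in ISG+ DC labelled Rag2-/-, and 1.09 and 0 CPM in ISG+ DC labelled WT. Both populations of the Rag2-/- label thus overlapped, and the 2 libraries labelled WT stood far below (between hosts log2 fold change -7.05 ± 0.90 SE, edgeR adjusted p = 0.0154; between populations -0.08 ± 0.65, adjusted p = 0.98).
Hist1h2ad had 163 and 15.8 CPM in CD103+ DC1, 47.3 and 16.7 CPM in ISG+ DC labelled Rag2-/-, and 0 in both libraries labelled WT. With 3 counts over the group as the limit, 0.141 CPM, it was at least 226-fold lower in the WT label (edgeR adjusted p = 0.0376), while the Rag2-/- populations overlapped (-1.48 ± 0.91, adjusted p = 0.51). The calls of Hist1h2ai and Hist1h2ad between hosts were kept in all 10 other settings run. How RSEM split reads between near-identical H2A members can move both, but a split among members does not move the sum of the type. Reads shared with H2A genes outside the clusters could move the sum. H2afx and H2afj, for example, had estimated counts that were not whole in every library. Such sharing was not tested.

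**Figure D3:**
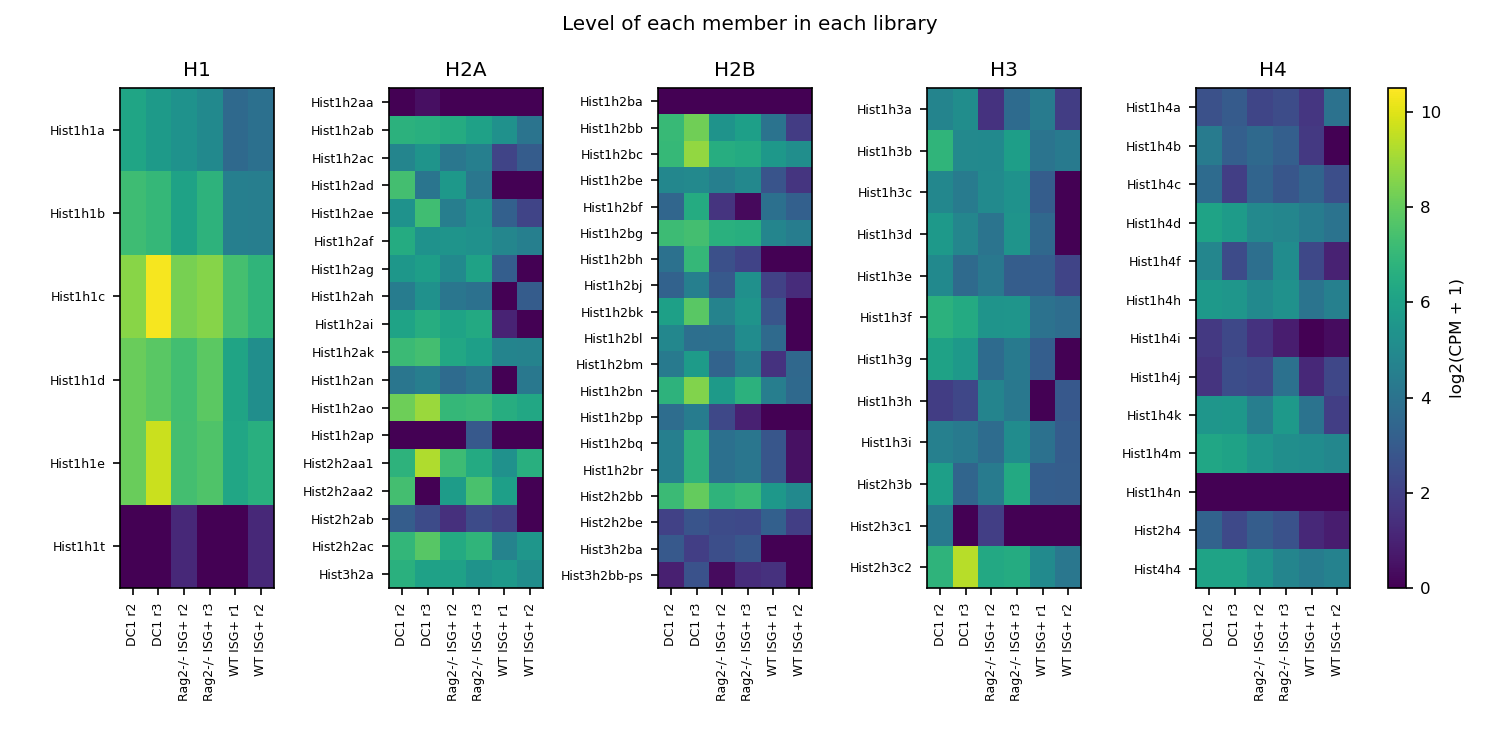
Level of each of the 68 members in each of the 6 libraries as log2(CPM + 1) from dark (0) to bright, with 1 panel per histone type; columns run from CD103+ DC1 (DC1) through ISG+ DC labelled Rag2-/- to ISG+ DC labelled WT, and r gives the replicate. The right columns are the darkest in most rows, with 14 and 20 members at 0 in the libraries labelled WT.

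Summed H2B was 900.1 and 2342 CPM in CD103+ DC1, 522 and 689 CPM in ISG+ DC labelled Rag2-/-, and 222 and 127 CPM in ISG+ DC labelled WT. The groups did not overlap, and the 2 DC1 libraries differed 2.6-fold, the widest gap among the type sums. The differences were -1.43 ± 0.42 SE between populations (edgeR adjusted p = 0.11) and -1.80 ± 0.43 between hosts (adjusted p = 0.0967), and neither passed. Leaving out CD103+ DC1 replicate 3 gave -0.56 ± 0.24 between populations (adjusted p = 0.289), and leaving out replicate 2 gave -1.95 ± 0.24 (adjusted p = 7.14e-06). Without ISG+ DC labelled WT replicate 1 the host difference was -2.26 ± 0.50 (adjusted p = 0.0249). As single genes, H2B members had medians of -1.65 between populations and -2.21 between hosts, with 11 and 14 of 18 apart and lower.

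Hist1h2bg fell between hosts. Its level was 145 and 162 CPM in CD103+ DC1, 99.2 and 95.8 CPM in ISG+ DC labelled Rag2-/-, and 26.8 and 20.6 CPM in ISG+ DC labelled WT. The groups were well separated and the pairs close, with a 4.10-fold lower level in the WT label (log2 fold change -2.04 ± 0.32 SE, edgeR adjusted p = 0.0279). Between populations the value was -0.65 ± 0.31 (adjusted p = 0.362). The host call was lost without ISG+ DC labelled Rag2-/- replicate 2 (0.111) or 3 (0.0625) and without ISG+ DC labelled WT replicate 2 (0.121).
Hist1h2bf went another way. It had 10 and 86.2 CPM in CD103+ DC1, 1.95 and 0.207 CPM in ISG+ DC labelled Rag2-/-, and 13.7 and 8.39 CPM in ISG+ DC labelled WT. It fell between populations (-5.44 ± 1.25, adjusted p = 0.0403), and it was the only member that lay apart and higher in the WT label, where it did not pass (3.32 ± 1.14, adjusted p = 0.308). Its population call was lost without CD103+ DC1 replicate 3 (adjusted p = 0.335) and without ISG+ DC labelled Rag2-/- replicate 3 (0.0987), and in the 4 libraries alone (0.0754).
Hist1h2bc took the most H2B counts, 12.2% to 27.8% of the type. Its levels were 130 and 444 CPM in CD103+ DC1, 92.2 and 84.3 CPM in ISG+ DC labelled Rag2-/-, and 47.9 and 35.3 CPM in ISG+ DC labelled WT. The groups did not overlap and neither difference passed (-1.70 ± 0.49, adjusted p = 0.101, and -1.09 ± 0.48, adjusted p = 0.49). Without CD103+ DC1 replicate 3 its population difference was -0.54 (adjusted p = 0.693), and without replicate 2 it was -2.34 (adjusted p = 7.7e-06). It passed between populations in DESeq2 (adjusted p = 0.0136) and with ISG+ DC of both hosts pooled (0.0383). Among the members at 0 in both WT libraries were Hist1h2bh, Hist1h2bp and Hist3h2ba, at least 29.4-fold, 16.9-fold and 39.0-fold lower than in the Rag2-/- label, with adjusted p of 0.0805, 0.151 and 0.198. Hist2h2bb, in the Hist2 cluster, had 144 and 260 CPM, 113 and 132 CPM, and 47.0 and 31.0 CPM in the 3 groups, all apart (host adjusted p = 0.0849). These 4 were singled out after their values were seen. The limits given for the genes at 0 cover counting error alone, and not how RSEM split reads among copies.

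H3 and H4 form the central tetramer of the nucleosome. Summed H3 was 637 and 958.5 CPM in CD103+ DC1, 289 and 441 CPM in ISG+ DC labelled Rag2-/-, and 137 and 76.2 CPM in ISG+ DC labelled WT. The groups did not overlap, and the 2 libraries labelled WT differed by 1.80-fold. The difference between populations was -1.14 ± 0.35 SE (edgeR adjusted p = 0.124), and that between hosts was -1.78 ± 0.35, just short of the threshold (adjusted p = 0.0511). Without ISG+ DC labelled WT replicate 1 the host difference passed (-2.26 ± 0.45, adjusted p = 0.0128), and without CD103+ DC1 replicate 2 the population difference did (-1.40 ± 0.28, adjusted p = 0.00136). No single H3 gene passed in edgeR, with 2 lower at an unadjusted p under 0.05 between populations and 4 between hosts, and 2 and 1 fallen in DESeq2. Their medians were -0.74 and -1.84.

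Hist2h3c2 took the most H3 counts, and its share of them ran from 17.5% to 69.9%, the highest in CD103+ DC1 replicate 3. Its levels were 111 and 670.1 CPM in CD103+ DC1, 78.8 and 86.1 CPM in ISG+ DC labelled Rag2-/-, and 32.0 and 16.8 CPM in ISG+ DC labelled WT. The order of the groups was kept, but replicate 3 of CD103+ DC1 stood far above all others. Neither comparison passed (-2.24 ± 0.66, adjusted p = 0.11, and -1.75 ± 0.65, adjusted p = 0.358). Its population difference was -0.41 (adjusted p = 0.891) without CD103+ DC1 replicate 3 and -3.03 (adjusted p = 8.94e-07) without replicate 2, and it passed in DESeq2 (adjusted p = 0.00674). Summed without Hist2h3c2, H3 differed by -0.53 ± 0.39 between populations and by -1.78 ± 0.40 between hosts. Hist1h3c and Hist1h3h, named after their values were seen, were the only members apart and higher in ISG+ DC than in CD103+ DC1. Hist1h3h had 2.79 and 3.75 CPM in CD103+ DC1, 25.3 and 17.3 CPM in ISG+ DC labelled Rag2-/-, and 0 and 6.37 CPM in ISG+ DC labelled WT, and its difference of 2.70 ± 1.58 between populations did not pass (adjusted p = 0.48).

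Summed H4 was 379 and 309.5 CPM in CD103+ DC1, 219 and 249 CPM in ISG+ DC labelled Rag2-/-, and 124.5 and 118 CPM in ISG+ DC labelled WT. The groups did not overlap, and in contrast to the other types CD103+ DC1 replicate 3 was not above replicate 2. The differences were -0.56 ± 0.25 SE between populations (edgeR adjusted p = 0.33) and -0.96 ± 0.25 between hosts (adjusted p = 0.143), and they were the smallest among the 5 sums in both. Hist1h4m, with the most H4 counts (14.3% to 27.0%), had 73.0 and 64.7 CPM in CD103+ DC1, 44.8 and 35.8 CPM in ISG+ DC labelled Rag2-/-, and 33.7 and 28.3 CPM in ISG+ DC labelled WT. Its groups were ordered as the sum, with differences of -0.77 ± 0.39 (adjusted p = 0.404) and -0.38 ± 0.39 (adjusted p = 0.874). No H4 member passed in edgeR or DESeq2, with 2 lower at an unadjusted p under 0.05 in each comparison. The medians over the 12 tested were -0.49 and -1.37, and 6 and 10 were apart and lower.

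The types did not keep fixed proportions. H4 made up 8.28% of histone counts in CD103+ DC1 replicate 2 but 3.77% in replicate 3, 8.17% and 7.51% in ISG+ DC labelled Rag2-/-, and 10.3% and 12.3% in ISG+ DC labelled WT. H2B ran the other way, with 28.5% in CD103+ DC1 replicate 3 and 13.2% in ISG+ DC labelled WT replicate 2 as its extremes and 18.4% to 20.8% in the other 4 libraries. Between hosts the H4 shares did not overlap and were higher in the WT label, and the H2B shares did not overlap and were lower; these shares were not tested. H1 held 25.4% to 30.4%, H2A 25.6% to 36.9% and H3 7.94% to 13.9% of the histone counts.

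Pairs with identical coding sequence show how reads were shared. RSEM gave Hist2h2aa1 1636 and 3557 reads in CD103+ DC1, 2303 and 1154 in ISG+ DC labelled Rag2-/-, and 433 and 978 in ISG+ DC labelled WT. Its partner Hist2h2aa2 was given 2477 and 0, 883 and 2466, and 668 and 0 in the same libraries. The split jumped between libraries of a group, whereas the sum of the pair was even within the WT label: 274 and 609 CPM in CD103+ DC1, 201 and 264 CPM in ISG+ DC labelled Rag2-/-, and 98.4 and 97.6 CPM in ISG+ DC labelled WT. The pair's sum did not overlap between any groups. Hist1h2bq and Hist1h2br were given the same value in every library, and Hist1h4n had no counts beside its twin Hist1h4m. Nearly the same held for Hist1h2ap, with 6.58 CPM in 1 library and 0 in the other 5 beside its twin Hist1h2ao. These pairs were picked by their sequence.

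By cluster, summed Hist1 was 2.16-fold lower in ISG+ DC than in CD103+ DC1 and 2.85-fold lower in the WT than in the Rag2-/- label. Hist1 was 1.59-fold lower between populations without CD103+ DC1 replicate 3 and 2.73-fold lower without replicate 2. Summed Hist2 was 749 and 1781 CPM in CD103+ DC1, 512 and 694 CPM in ISG+ DC labelled Rag2-/-, and 223 and 201 CPM in ISG+ DC labelled WT. Its groups did not overlap, with mean levels 2.10-fold and 2.84-fold lower. The first of these folds rests on CD103+ DC1 replicate 3, since it was 1.24 without that library and 2.95 without replicate 2. The single Hist4 gene, Hist4h4, was 1.94-fold and 1.55-fold lower in group means. Hist3 was 1.53-fold and 1.36-fold lower, and its host groups overlapped: 68.9 and 48.5 CPM in ISG+ DC labelled Rag2-/- against 51.1 and 35.0 CPM in ISG+ DC labelled WT. Most Hist3 counts were of Hist3h2a, with 101 and 62.7 CPM in CD103+ DC1, 64.0 and 40.7 CPM in ISG+ DC labelled Rag2-/-, and 49.4 and 35.0 CPM in ISG+ DC labelled WT. The cluster sums were not tested.

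Variant histone genes outside the clusters supply histones through the cell cycle. None of the 10 tested passed in edgeR in either comparison, with 2 and 3 lower at an unadjusted p under 0.05 and 1 fallen in DESeq2 in each. Over all genes, as given above, 6.11% and 5.32% were lower at that unadjusted p in the population and host comparison, and 3.02% and 2.11% fell in DESeq2; these shares are the background of each list below as well. Their medians were 0.01 between populations and -0.27 between hosts. H3f3b, a gene for the replacement histone H3.3, had 491.5 and 620.2 CPM in CD103+ DC1, 584 and 686 CPM in ISG+ DC labelled Rag2-/-, and 461 and 436 CPM in ISG+ DC labelled WT, so that the populations overlapped. H2afx, whose phosphorylated protein marks DNA breaks, was ordered like the cluster genes: 121 and 166 CPM, 41.3 and 48.8 CPM, and 7.30 and 24.7 CPM in the same order. Its groups did not overlap, and its differences of -1.67 ± 0.52 (edgeR adjusted p = 0.134) and -1.50 ± 0.52 (adjusted p = 0.317) did not pass. H2afz, the H2A.Z gene, differed by -1.06 ± 0.36 between populations (adjusted p = 0.175) and by -0.01 ± 0.36 between hosts (adjusted p = 1). H1f0, the H1 variant of resting cells, differed by 0.06 ± 0.34 (adjusted p = 0.969) and -1.29 ± 0.34 (adjusted p = 0.146).

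The factors that switch on histone genes in S phase include Npat, its partner Casp8ap2 and cyclin E with Cdk2. None of 9 passed in edgeR in either comparison, where 1 in each was lower at an unadjusted p under 0.05, and DESeq2 called 0 and 1. Npat, the histone locus activator, had 19.1 and 53.1 CPM in CD103+ DC1, 30.9 and 28.1 CPM in ISG+ DC labelled Rag2-/-, and 13.8 and 11.7 CPM in ISG+ DC labelled WT. The WT label was lowest, yet the host difference of -1.21 ± 0.59 had an adjusted p of 0.572. Ccne1, cyclin E1, had 10.2 and 16.8 CPM, 11.3 and 15.5 CPM, and 1.61 and 0.998 CPM in the same order, with a host difference of -3.35 ± 1.01 (adjusted p = 0.22). Casp8ap2 differed by -0.90 ± 0.32 between populations (adjusted p = 0.195) and by 0.06 ± 0.32 between hosts (adjusted p = 0.992).

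None of the 15 tested genes for 3′ end formation passed in edgeR in either comparison, with 2 and 0 lower at an unadjusted p under 0.05 and 1 and 0 fallen in DESeq2. Slbp, the stem-loop binding protein, had 70.3 and 97.5 CPM in CD103+ DC1, 42.8 and 58.1 CPM in ISG+ DC labelled Rag2-/-, and 43.0 and 59.9 CPM in ISG+ DC labelled WT. Its CD103+ DC1 libraries were higher, and the 2 ISG+ DC groups overlapped fully (-0.73 ± 0.39, adjusted p = 0.423, and 0.03 ± 0.38, adjusted p = 0.995). Lsm11, a U7 core protein, had 4.11 and 8.98 CPM in CD103+ DC1, 13.8 and 29.0 CPM in ISG+ DC labelled Rag2-/-, and 3.64 and 7.42 CPM in ISG+ DC labelled WT. It was thus not ordered like the histones, with differences of 1.73 ± 0.92 between populations (adjusted p = 0.429) and -1.95 ± 0.92 between hosts (adjusted p = 0.548). Zfp473, another U7-associated gene, had no count in any library. The summed list was 1046 and 1689, 952 and 1090, and 766 and 837 CPM in the 3 groups.

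None of 10 histone mRNA decay genes passed in edgeR, with 1 and 0 lower at an unadjusted p under 0.05 and 0 and 0 called in DESeq2. Their summed level ran only from 810.5 to 995 CPM over the 6 libraries. Exosc9, an exosome subunit, differed by -1.14 ± 0.43 between populations (adjusted p = 0.235) and by 0.33 ± 0.43 between hosts (adjusted p = 0.922).

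Among 20 histone chaperones, which carry new histones to DNA, 1 rose and none fell between populations in edgeR, where 6 were lower at an unadjusted p under 0.05 and DESeq2 called 5 lower and 1 higher. Between hosts none passed in edgeR, with 4 lower at that unadjusted p and 3 fallen in DESeq2. The gene that rose was Daxx, a chaperone of H3.3. It had 142 and 101 CPM in CD103+ DC1, 290 and 276 CPM in ISG+ DC labelled Rag2-/-, and 122 and 126 CPM in ISG+ DC labelled WT. Only ISG+ DC labelled Rag2-/- stood above the rest (1.22 ± 0.28, adjusted p = 0.0388 between populations, and -1.19 ± 0.28, adjusted p = 0.093 between hosts). Chaf1a, the large subunit of chromatin assembly factor 1, which deposits H3 and H4 behind the replication fork, was ordered like the core histones: 126.5 and 239 CPM, 61.7 and 57.4 CPM, and 7.86 and 20.9 CPM. Its groups did not overlap, and its differences of -1.62 ± 0.48 (adjusted p = 0.116) and -2.05 ± 0.49 (adjusted p = 0.103) did not pass. Nasp, a carrier of soluble H3 and H4, had 99.2 and 356 CPM, 61.1 and 73.4 CPM, and 56.7 and 53.4 CPM, and differed by -1.76 ± 0.50 between populations (adjusted p = 0.0977). Over the list the medians were -0.67 and -0.52.

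Genes of the cell cycle were lowest in the same group as the histones. The summed level of 36 DNA replication genes was 2625 and 3130 CPM in CD103+ DC1, 1472 and 1812 CPM in ISG+ DC labelled Rag2-/-, and 998 and 871 CPM in ISG+ DC labelled WT. The sum of 17 mitosis genes was 3086 and 4341 CPM, 1393 and 1269 CPM, and 489.5 and 348 CPM in the same order. Neither sum overlapped between groups, and both had the order of the histone total. In edgeR 0 of 36 replication genes passed between populations, where 12 were lower at an unadjusted p under 0.05 and 6 fell in DESeq2, and 1, the helicase subunit Mcm6, fell between hosts. Between hosts 14 replication genes were lower at that unadjusted p, and 4 fell in DESeq2. Of the mitosis genes, Mki67 and Top2a fell between populations and Mki67 between hosts. At that unadjusted p 9 of 17 mitosis genes were lower in each comparison, and 4 and 7 fell in DESeq2. Of all genes tested, 0.862% and 0.265% fell in edgeR between populations and between hosts. Medians were -0.82 and -0.92 for the replication list and -1.25 and -1.55 for the mitosis list.

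Set against the replication list, the histone total was 1.75 and 2.62 times that sum in CD103+ DC1, 1.82 and 1.83 times in ISG+ DC labelled Rag2-/-, and 1.21 and 1.10 times in ISG+ DC labelled WT. The ratio overlapped between the populations and did not overlap between the hosts, where the WT label was lower. Against the mitosis list it was 1.48 and 1.89 in CD103+ DC1, 1.92 and 2.62 in ISG+ DC labelled Rag2-/-, and 2.47 and 2.76 in ISG+ DC labelled WT, so that it was apart and higher in ISG+ DC than in CD103+ DC1 and the host groups overlapped. Mki67 alone gave 1374 and 2291 CPM of the mitosis sum in CD103+ DC1, and 531 and 492 CPM in ISG+ DC labelled Rag2-/-. It gave 198 and 153 CPM in ISG+ DC labelled WT. The ratio to the mitosis list thus leans on 1 gene, and its separation of the populations may not hold without Mki67. The ratios were not tested, and no share of cells in S phase was measured.

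**Figure D4:**
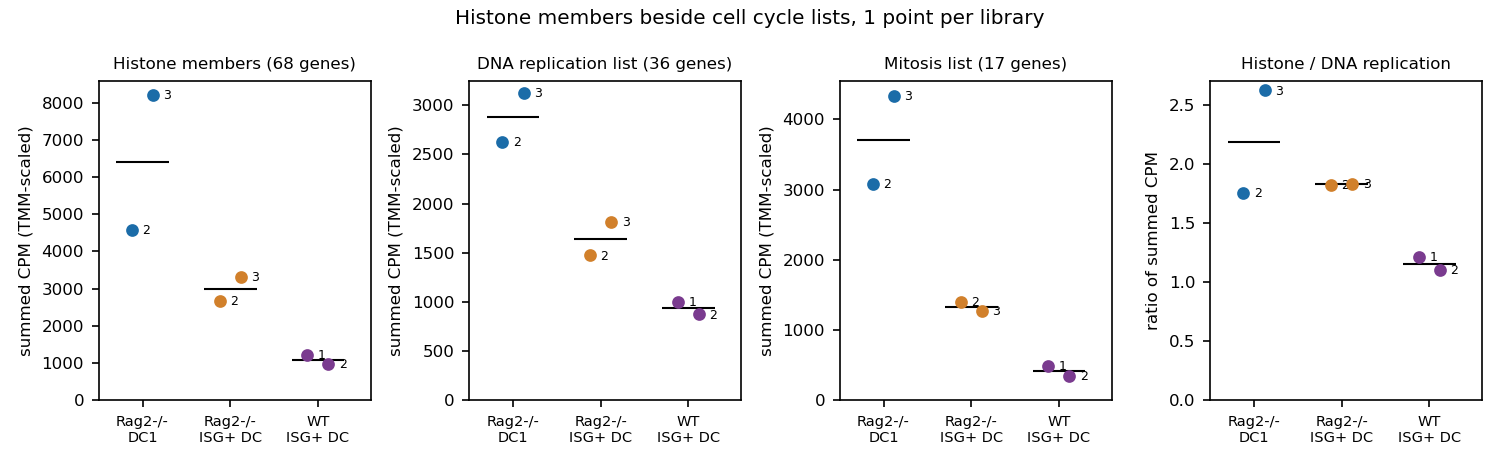
Summed CPM (TMM-scaled) of the histone members, the DNA replication list and the mitosis list, and the ratio of the first to the second, by group; points are libraries with their replicate number, bars are means of 2 libraries and all axes start at 0. All 3 sums are lowest in ISG+ DC labelled WT, and the ratio there is 1.21 and 1.10 against 1.82 and 1.83 in ISG+ DC labelled Rag2-/-.

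Markers of other cells moved with the groups. All 8 DC1 markers were apart and lower in ISG+ DC than in CD103+ DC1 (7 passed), with summed levels of 7792 and 4355 CPM against 941.5 and 1063 CPM, and 599 and 589 CPM in the WT label, and all 6 markers of CD11b+ DC passed as higher. Of 10 macrophage and monocyte markers, 8 passed as higher between populations and 0 between hosts, and their sum was 401 and 290 CPM, 2013 and 2766 CPM, and 4012 and 3747 CPM in the 3 groups. Between hosts 6 of them were higher at an unadjusted p under 0.05 and 5 rose in DESeq2, against 4.56% and 1.98% of all genes. The part of these markers in the histone differences was not tested. The sum of 8 fibroblast and tumor matrix genes was 1050 and 421 CPM, 1037 and 637 CPM, and 506 and 38.7 CPM, and it overlapped between populations but was apart and lower in the WT label, as the histones were. Its part in the host difference was not tested. The neutrophil list reached 131 and 136 CPM in the WT label against at most 22.5 CPM elsewhere, nearly all of it Csf3r, while S100a8 and Elane had no count in any library. T cell markers stayed at 8.4 to 36.3 CPM and B cell markers at 4.47 CPM or less, with Ms4a1 at 0 in every library, and neither list was apart between the hosts. NK cell markers summed to 77.7 to 158 CPM, mostly Klrk1, with Klrb1c at 0, plasmacytoid DC markers to 63.8 to 169.5 CPM with Siglech at 3.61 CPM or less, and erythroid genes to 1.88 to 65.6 CPM with Hba-a2 at 0. The sum of 14 noncoding RNAs without poly(A) tails was 4072 and 11880 CPM in CD103+ DC1 and 4485 to 5076 CPM in the other 4 libraries. Rpph1 made up 11490 of the 11880 CPM, so the sum does not stand for the list. In that library Rmrp was lowest, at 185 CPM against 671 to 1052 CPM elsewhere. Scarna13 was highest there, at 123 CPM against 30.3 to 48.6 CPM elsewhere.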

How the data were processed

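Bulk RNA of sorted DC was read as RSEM estimated counts per gene symbol, deposited by the authors without normalization. Bowtie 1.2.3, RSEM 1.3.1 and build mm9 are named, per the submitters' processing notes; which annotation, strand setting and read filters were used is not stated there. RSEM divides reads that fit several genes, so values of single histone genes are uncertain, and types were summed before rounding.

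After rounding, edgeR 4.0.16 under R 4.3.3 tested the counts (filterByExpr, TMM, glmQLFit and glmQLFTest, two-sided, Benjamini-Hochberg over all genes, threshold 0.05). One fit over all 6 libraries served both comparisons (common biological coefficient of variation 0.703). The procedure was also run on simulated counts. The changes set there were larger than those of the type sums and no reads were shared between genes, so that run does not bear on the sums. P-values rest on the spread between 2 libraries a group. DESeq2 1.42.0, other scaling, no filter, each library left out, a replicate block, 4 libraries alone and pooled ISG+ DC were alternatives; leaving libraries out of the cluster sums and the total was added after seeing the data. Totals ran from 6023510 to 15368616 counts; 3 counts over a group, 0.144, 0.101 and 0.141 CPM in CD103+ DC1, ISG+ DC labelled Rag2-/- and ISG+ DC labelled WT, served as the limit for genes at 0 and cover counting error alone.

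Sequences came from RefSeq (GRCm38.p6) and GENCODE M21, another build than the counts. The rule named every member that passed, the member with the most counts of each type, and up to 3 genes with the smallest p of each supply list and comparison. H3f3b, Rpph1, Zfp473, markers and other members beyond that rule were named after their values were seen. The members and lists were chosen with earlier results of these data known.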

Additional observations from a re-analysis of the deposited data

How the results depend on the processing

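With 2 libraries a group, depth limits members at a few counts, and a library left out leaves a lone sample assumed to vary like the other groups. The cause of the moves below was not tested. All genes called between populations numbered 488, and 1087 with no filter, 1078 in DESeq2, 297 in the 4 libraries alone and 278 to 2068 with a library left out; between hosts they numbered 73, and 555, 541, 444 and 27 to 198. Histone members that fell between populations were 2, against 16 with no filter, 9 in DESeq2, 0 in the 4 libraries alone, 4 with ISG+ DC of both hosts pooled and 0 to 17 with a library left out, where 0 to 1 rose; between hosts they were 4, against 31 (and 1 that rose) with no filter, 18 in DESeq2, 10 in the 4 libraries alone and 2 to 15 with a library left out. RLE size factors or library totals alone left both counts at 2 and 4; totals moved the median of all genes between hosts to -0.11 and that of the members to -1.94.

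Sums that missed the threshold between populations passed with no filter (H1 -1.10, H2A -0.94, H2B -1.42, H3 -1.13) and in DESeq2 (H1 -1.15, H2A -0.99, H2B -1.48, H3 -1.18). With a library left out the ranges were -1.55 to -0.43 for H1, -1.16 to -0.66 for H2A, -1.95 to -0.56 for H2B and -1.47 to -0.79 for H3. Between hosts, sums passed with no filter (H1 -1.45, H2B -1.80, H3 -1.78), in DESeq2 (H1 -1.43, H2B -1.78, H3 -1.76, H4 -0.94) and in the 4 libraries alone (H1 -1.45, H2B -1.80, H3 -1.78, H4 -0.96), and H1 without Hist1h1c (-1.53). Their ranges with a library left out were -1.43 to -1.29 for H2A, which then passed in none, -2.26 to -1.46 for H2B and -2.26 to -1.42 for H3. Every summed type kept its lower direction in all 115 alternative fits.

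Replicate numbers are shared by labels only; deviations of the 2 libraries numbered 2 in the Rag2-/- groups correlated at 0.0162. With the number as a replicate block, 258 genes were called between hosts, 9 members fell between populations and 16 between hosts, H2B passed between populations (-1.28), and between hosts H2B (-1.82) and H3 (-1.93) passed while H2A (-1.26, adjusted p = 0.352) and the single gene Hist1h1b (-1.88, adjusted p = 0.183) did not. With ISG+ DC of both hosts pooled, Hist1h2bf lost its call (-2.99, adjusted p = 0.195).

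Differences that did not pass changed sign in places. Between populations, with a library left out, the ranges were -2.42 to 1.02 for Hist1h2ad, -0.29 to 0.18 for Hist1h2ai, -0.29 to 0.34 for H1f0, -0.12 to 0.05 for H2afy, -0.33 to 0.42 for Ccne1, -0.85 to 0.64 for Npat, -0.31 to 1.37 for E2f1 and -0.05 to 0.27 for Xrn1. Hist1h2ad was above 0 without CD103+ DC1 replicate 2, and Hist1h2ai without CD103+ DC1 replicate 3 (0.18) or ISG+ DC labelled Rag2-/- replicate 2 (0.04). With ISG+ DC of both hosts pooled, H1f0 was at -0.45, E2f1 at -0.28, Snrpb at -0.08 and Xrn1 at -0.15, and Ccne1 was at 0.02 with totals and with the replicate block. Between hosts, with a library left out, the ranges were -0.09 to 0.07 for H2afz, -0.04 to 0.16 for Casp8ap2, -0.24 to 0.26 for Slbp, -0.12 to 0.81 for Exosc10 and -0.61 to 0.04 for Upf1. H2afz was at 0.01 with RLE factors and in DESeq2, and with totals Casp8ap2 was at -0.02 and Slbp at -0.05. With the replicate block, H2afz was at 0.18, H2afv at 0.23, Snrpf at 0.32 and Nasp at 0.15.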
